A study of Mus musculus with 5 samples.

Results

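Cortical neurons arise from radial glia either directly or through intermediate progenitors, cells that leave the ventricular surface and divide away from it, mostly in the subventricular zone, to give neurons. Proneural factors of the basic helix-loop-helix (bHLH) class start this step, the T-box factor Eomes (also called Tbr2) marks the intermediate progenitor, and Neurod factors follow as its daughters become glutamatergic neurons. The 10 genes described here were listed by symbol: the proneural factors Neurog1 and Neurog2, the intermediate progenitor genes Eomes, Insm1, Btg2, Gadd45g and Sstr2, and the Neurod factors Neurod1, Neurod2 and Neurod6. All 10 were found among the 34590 gene symbols of the deposited files.

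The study measured polyA RNA in cortex dissected from untreated wild-type mouse embryos of a mixed strain background at E14.5, a stage named by the days of embryonic age. Medial cortex (3 libraries) was compared with lateral cortex (2 libraries), and the series title concerns Sonic hedgehog, basal radial glia and intermediate progenitors. The labels do not say whether the libraries came from different embryos. P-values therefore reflect the spread among these 5 libraries, which may be technical. A tag in the deposited names pairs medial library 2 with lateral library 1 and medial library 3 with lateral library 2. The main test did not use this tag, and a fit that did is given at the end. The tissue is a mixture of cells, and fewer cells of a type cannot be told apart from less RNA per cell.

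Total gene counts ran from 27406370 to 36460274 in medial and from 56147129 to 66981952 in lateral libraries, so depth differed between the regions. All 10 genes had at least 261 reads in every library and passed the filter on low counts. Medial library 1 stood apart from the other medial libraries. Across genes, its log2 levels correlated with theirs at 0.978 and 0.974, against 0.989 between medial libraries 2 and 3 and 0.979 between medial library 3 and lateral library 1. Its 9 markers of the cortical hem, a source of Wnt signals along the edge of the cortex, summed to 337 CPM (reads scaled to a common library size), against 116 and 137 CPM in the other medial and 5.52 to 6.46 CPM in the lateral libraries. The dorsal telencephalon marker Emx1 was present in every library, between 68.4 and 116 CPM, whereas the choroid plexus transcript Ttr stayed at or below 10.4 CPM.

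Fold changes of the 3 Neurod paralogs had opposite signs in the same libraries, positive for Neurod1 and negative for Neurod2 and Neurod6. Only Neurod2 passed the main test (edgeR adjusted p = 0.0480, against 0.0562 for Neurod1 and 0.0565 for Neurod6). The proximal promoters of these 3 genes are given here because of those signs. They are the 250 bases before the RefSeq start site on GRCm38.p6, a later build than the mm9 named in the submitters' processing notes. Capitals mark each CANNTG, the E-box bound by bHLH dimers, which reads as the same class of word on both strands. The windows are chr2:79456637-79456886 for Neurod1, chr11:98329646-98329895 for Neurod2 and chr6:55681264-55681513 for Neurod6, all on the minus strand.
Neurod1: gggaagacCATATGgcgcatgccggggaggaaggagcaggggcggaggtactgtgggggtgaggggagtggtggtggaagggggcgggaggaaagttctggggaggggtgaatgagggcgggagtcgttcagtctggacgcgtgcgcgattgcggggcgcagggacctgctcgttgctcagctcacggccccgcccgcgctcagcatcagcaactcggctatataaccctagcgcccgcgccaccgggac
Neurod2: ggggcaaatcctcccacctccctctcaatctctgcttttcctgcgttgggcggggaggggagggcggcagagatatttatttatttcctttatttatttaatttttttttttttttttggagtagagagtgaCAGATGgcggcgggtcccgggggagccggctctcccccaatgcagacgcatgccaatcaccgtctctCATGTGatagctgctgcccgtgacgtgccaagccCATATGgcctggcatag
Neurod6: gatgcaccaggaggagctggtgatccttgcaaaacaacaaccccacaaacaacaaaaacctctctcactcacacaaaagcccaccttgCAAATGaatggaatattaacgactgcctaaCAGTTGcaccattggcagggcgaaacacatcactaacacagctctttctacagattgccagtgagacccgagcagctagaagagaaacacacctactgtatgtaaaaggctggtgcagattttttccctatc

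The Neurod1 window held 1 E-box, Neurod2 held 3 and Neurod6 held 2. Of all 32851 promoter windows of this length in the RefSeq table, 66.2% held at least 1 CANNTG, 31.8% at least 2 and 12.2% at least 3. The Neurod2 window was the only 1 of the 3 with CAGATG or its reverse complement CATCTG, words found in 14.4% of all windows. Of the 10 genes 9, all but Insm1, had a window in the table. Gadd45g held 3 CANNTG words, one of them CAGCTG, a word present in 13.0% of all windows. Those of Eomes, Neurog1, Neurog2, Btg2 and Sstr2 held 0. A base composition of 67.6% G or C in the Neurod1 window compared with 52.8% in Neurod2 and 46.0% in Neurod6. These are matches of letters in a short window and describe no binding.

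Between the regions, Neurod2, a factor of young glutamatergic neurons, was lower in medial cortex, and 0 of the 10 genes were higher by the edgeR quasi-likelihood test at an adjusted p of 0.05. That 1 of 10 compares with 9.72% of all 16229 genes tested, so the share called was near the background; 5.1% of all genes were lower and 4.62% higher. At an unadjusted p under 0.05 there were 4 genes with a negative and 2 with a positive log2 fold change, or 6 of 10 against 32.2% of all genes. DESeq2 called the same number in each direction, 4 lower and 2 higher, where 21.7% of all genes were called. Medial and lateral libraries were fully separated in 6 of the 10 genes against 53.3% of all genes. Every medial library was below both lateral ones in 4 (26.7% of all genes) and above them in 2 (26.5%). The median log2 fold change, medial over lateral, was −0.18 over the 10 genes and 0.01 over all genes, and the median of its absolute size was 0.46 and 0.26.

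**Figure D1:**
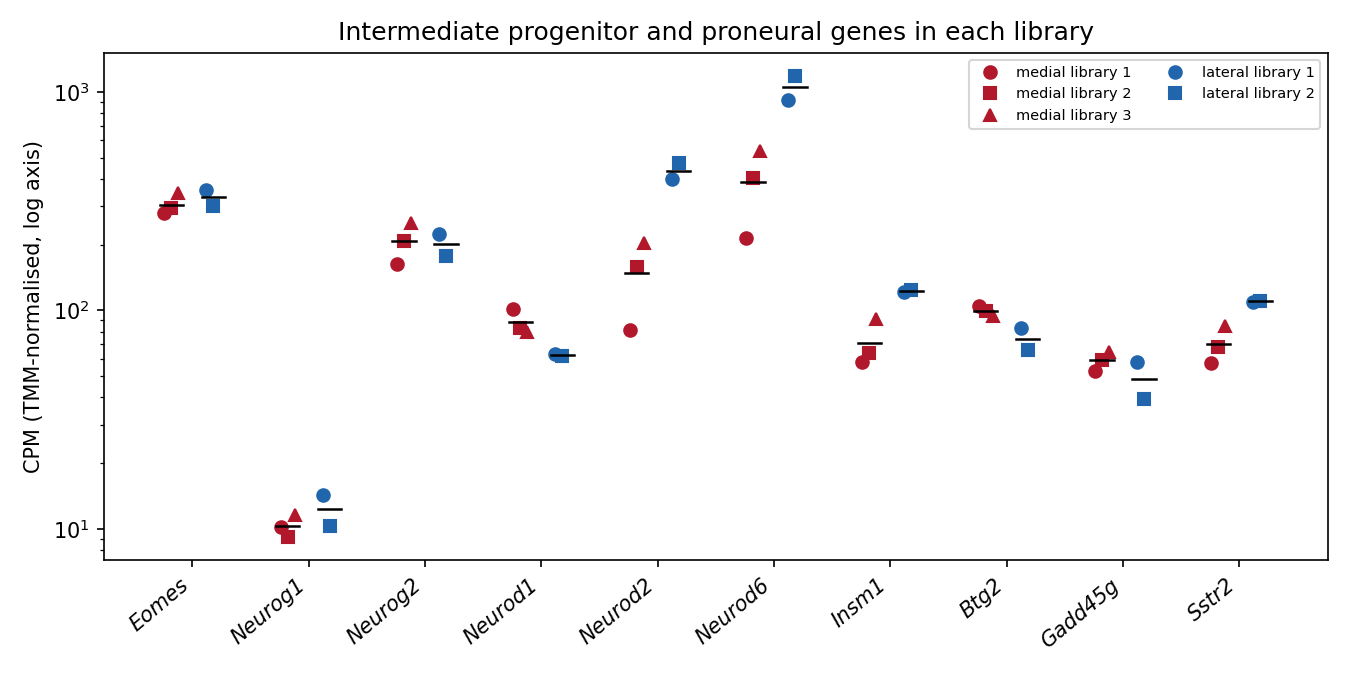
Level of each gene in CPM on a log axis, with 1 point per library (red, 3 medial; blue, 2 lateral) and a bar at each group mean. All medial points lie below the lateral ones for Neurod2, Neurod6, Insm1 and Sstr2 and above them for Neurod1 and Btg2, and the groups overlap for Eomes, Neurog1, Neurog2 and Gadd45g.

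The proneural factors that start neurogenesis in radial glia did not pass the test between the regions. Neurog2, the main cortical proneural factor, had 162, 208 and 251 CPM in medial libraries 1 to 3 and 224 and 178 CPM in lateral libraries 1 and 2. The lateral values lay inside the medial range. Its log2 fold change was 0.04 (SE 0.20, edgeR adjusted p = 0.902), with a 95% interval from −0.44 to 0.53. This interval leaves room for a change of either sign. Neurog1, which acts beside Neurog2 in early cortical progenitors, had 10.2, 9.13 and 11.6 CPM in medial and 14.3 and 10.3 CPM in lateral libraries. Only lateral library 1 exceeded the medial range. The log2 fold change of Neurog1 was −0.25 (SE 0.19, edgeR adjusted p = 0.415, interval −0.73 to 0.22).

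Within a library, reads of 2 genes can be compared without any scaling between libraries. The log2 ratio of Neurog1 to Neurog2 reads was −3.99, −4.51 and −4.44 in medial and −3.96 and −4.12 in lateral libraries, which overlapped. With 3 libraries against 2 an exact two-sided permutation test has 10 splits and cannot go below p = 0.1. For this ratio the exact permutation p was 0.3, or 0.35 adjusted over the 7 ratios computed.

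Eomes, the defining factor of intermediate progenitors, had 278, 294 and 344 CPM in medial libraries 1 to 3 and 357 and 302 CPM in lateral libraries 1 and 2. Lateral library 2 lay between medial libraries 2 and 3. The log2 fold change was −0.11 (SE 0.13, edgeR adjusted p = 0.595), with an interval from −0.42 to 0.20, which does not include a 2-fold change. Against Neurog2, which acts upstream of it, Eomes had log2 read ratios of 0.77, 0.50 and 0.45 in medial and 0.67 and 0.76 in lateral libraries, again overlapping. Against Pax6, a factor of radial glia, the log2 ratios were 0.31, 0.45 and 0.74 in medial and 0.88 and 0.98 in lateral libraries. All medial values lay below the lateral ones, by 0.43 on average (exact permutation p = 0.2, adjusted p = 0.28). The 3 genes closest to Eomes in their level across the 5 libraries, relative to their own mean, were Akt1s1, Snrnp35 and Mpv17l2. None of the 5 libraries put them further than 0.0583 log2 units from Eomes. Among genes whose own fold change was at least the SE of Eomes, the closest were Rps10, Josd2 and Rps27, at most 0.0692 log2 units away.

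Insm1 and Sstr2 are expressed in intermediate progenitors and in newborn neurons. Insm1, a zinc-finger factor that promotes the formation of basal progenitors, had 58.2, 63.6 and 91.3 CPM in medial and 122 and 124 CPM in lateral libraries. Every medial library lay below both lateral ones, while the medial libraries themselves differed 1.57-fold. The log2 fold change was −0.79 (SE 0.19, edgeR adjusted p = 0.0544, interval −1.26 to −0.32), just outside the threshold. Sstr2, a G-protein-coupled receptor for somatostatin, had 57.6, 67.7 and 85.2 CPM in medial and 109 and 111 CPM in lateral libraries. It too had no overlap between groups, with a log2 fold change of −0.65 (SE 0.16, edgeR adjusted p = 0.0565, interval −1.04 to −0.25). The ratio of Sstr2 to Insm1 reads stayed in a narrow range, at 0.990, 1.06 and 0.933 in medial and 0.896 and 0.891 in lateral libraries. It was still higher in every medial library. The ratio of Eomes to Sstr2 reads ranged more widely, at 4.82, 4.34 and 4.03 in medial and 3.27 and 2.72 in lateral libraries, also higher in every medial library. In the RefSeq annotation of GRCm38.p6 the span of Sstr2 lies within that of Slc39a11, and reads of overlapping exons cannot be assigned by strand here. Slc39a11 had between 24.8 and 28.6 CPM in all 5 libraries.

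With all libraries DESeq2 called both genes lower in medial cortex (adjusted p = 0.00316 for Insm1 and 0.0061 for Sstr2), and edgeR with library size alone as scaling called Insm1 (0.0497). Leaving out single libraries also moved the edgeR calls. Insm1 was lower in medial cortex without medial library 3 (adjusted p = 0.0315), and Sstr2 was lower without medial library 3 (0.0414) and without medial library 1 (0.0463). In those fits the log2 fold change was −1.01 for Insm1, and −0.81 and −0.52 for Sstr2. Insm1 was not called without medial library 1 (edgeR adjusted p = 0.0560). Neither gene was called without medial library 2 (0.151 for Insm1 and 0.156 for Sstr2), a fit that called 0 of all genes. Without lateral library 1 and 2 in turn the log2 fold changes were −0.81 and −0.78 for Insm1, and −0.66 and −0.64 for Sstr2. Of all genes, 3.01% were called without medial library 3 and 13.2% without medial library 1.

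Btg2 and Gadd45g act against proliferation and are switched on in progenitors that will produce neurons. Btg2 had 105, 99.9 and 94.2 CPM in medial and 82.8 and 65.6 CPM in lateral libraries. Both lateral values were below all medial ones. The log2 fold change was 0.43 (SE 0.12, edgeR adjusted p = 0.0710, interval 0.13 to 0.72). DESeq2 called Btg2 higher at the same fold change (adjusted p = 0.0217). In edgeR the log2 fold change was 0.27 without lateral library 2 and 0.60 without lateral library 1, and 0 of the 5 fits that left out a library called it, 2 of which called 0 genes of any kind. Gadd45g had 53.0, 59.5 and 64.4 CPM in medial and 58.3 and 39.1 CPM in lateral libraries, which differed 1.49-fold from each other. Its log2 fold change was 0.28 (SE 0.18, edgeR adjusted p = 0.352) and depended on which lateral library was used, at 0.59 without lateral library 1 and 0.02 without lateral library 2.

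**Figure D2:**
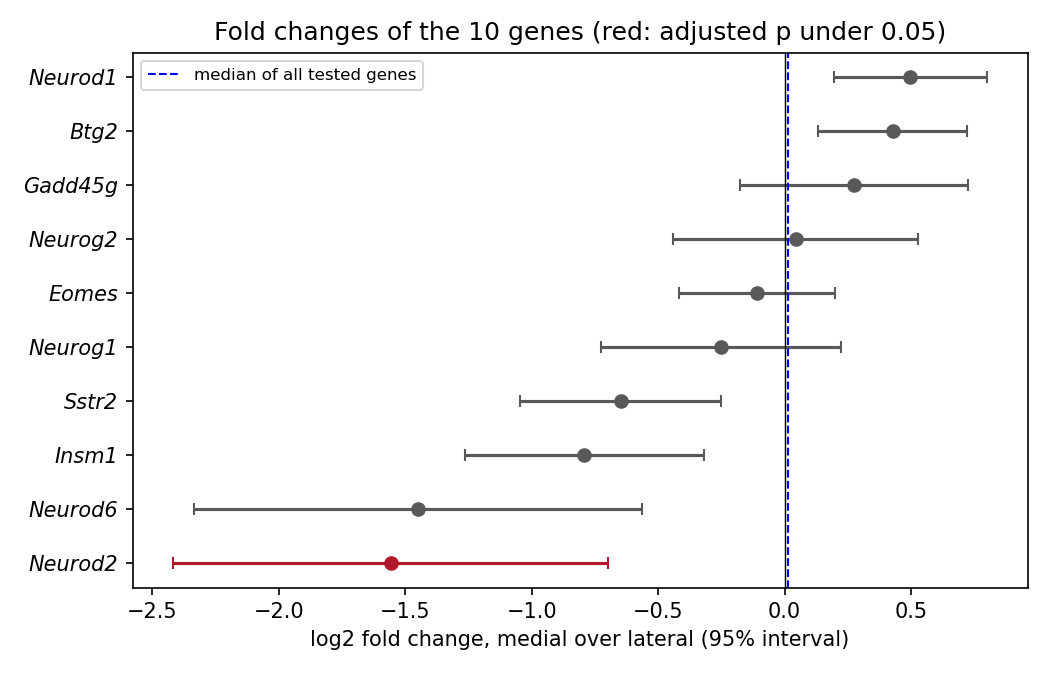
Log2 fold change of each gene, medial over lateral, with its 95% interval, ordered by size (red, adjusted p under 0.05; dashed line, median of all tested genes at 0.01). The values run from −1.56 for Neurod2 to 0.50 for Neurod1, and Neurod2 is the 1 gene in red.

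The Neurod factors gave the highest and the lowest fold changes of the 10 genes. Neurod1, which follows Eomes in late intermediate progenitors and newborn neurons, had 102, 83.0 and 79.6 CPM in medial and 63.1 and 61.8 CPM in lateral libraries. All medial values lay above the lateral ones. The log2 fold change was 0.50 (SE 0.12, edgeR adjusted p = 0.0562, interval 0.19 to 0.80). Without medial library 1, the library with the highest level, the gene passed at a log2 fold change of 0.38 (edgeR adjusted p = 0.0327). Neurod1 did not pass without medial library 2 (0.137) or medial library 3 (0.0642). Its log2 fold change was 0.51 without lateral library 1 and 0.48 without lateral library 2. With all libraries DESeq2 called Neurod1 higher (adjusted p = 0.0081).

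Neurod2 and Neurod6 are kept on in maturing glutamatergic neurons. Neurod2 had 81.7, 158 and 204 CPM in medial and 400 and 471 CPM in lateral libraries. Every medial value lay below both lateral ones, and the medial values differed 2.50-fold among themselves. Over the groups Neurod2 was 2.94-fold lower in medial cortex, at 148 CPM ± 61.8 (SD, n = 3) against 436 ± 50.6 (SD, n = 2). This is a log2 fold change of −1.56 (SE 0.35, edgeR adjusted p = 0.0480, interval −2.42 to −0.70). DESeq2 called Neurod2 lower as well (adjusted p = 0.000155). The edgeR call was lost without medial library 2 (log2 fold change −1.61, adjusted p = 0.137), medial library 3 (−1.86, 0.0535), lateral library 1 (−1.68, 0.118) or lateral library 2 (−1.44, 0.292). Of all genes, the fits without medial library 2 and lateral library 2 called 0, with 4035 and 2456 at an unadjusted p under 0.05, and that without lateral library 1 called 18, so a lost call there says little about Neurod2. Without medial library 1 it held, at −1.27 (adjusted p = 0.0173). The direction was the same in all of these fits.

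Neurod6 had 215, 403 and 540 CPM in medial and 924 and 1183 CPM in lateral libraries, again with no overlap. The medial libraries differed 2.52-fold among themselves, with medial library 1 the lowest. The log2 fold change was −1.45 (SE 0.36, edgeR adjusted p = 0.0565, interval −2.34 to −0.56). Without medial library 1 it was −1.16 and passed (edgeR adjusted p = 0.0238). Neurod6 did not pass without medial library 2 (0.147) or medial library 3 (0.0557). Its log2 fold change was −1.62 without lateral library 1 and −1.26 without lateral library 2. DESeq2 called Neurod6 lower with all libraries (adjusted p = 0.000614). Neurod6 and Neurod2 had the most similar pattern of any pair among the 10 genes, at most 0.12 log2 units apart in any library relative to their means. There were 2.63, 2.55 and 2.64 Neurod6 reads per Neurod2 read in medial and 2.31 and 2.51 in lateral libraries.

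Neurod1 and Neurod2 had the least similar pattern, up to 2.04 log2 units apart. Per Neurod1 read there were 0.803, 1.90 and 2.56 Neurod2 reads in medial libraries 1 to 3 and 6.33 and 7.63 in lateral libraries 1 and 2. In the promoter windows given above, Neurod1 has a single E-box far from its start site, 242 bases upstream, and Neurod2 has its closest 17 bases upstream. Neurod6, which had nearly the pattern of Neurod2, has its closest 132 bases upstream. Such a difference in letters describes the windows and was not tested against the levels.

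Set against Eomes, the later genes split in the same way. The log2 ratio of Neurod1 to Eomes reads was −1.45, −1.82 and −2.11 in medial and −2.50 and −2.29 in lateral libraries, higher in every medial library (exact permutation p = 0.2, adjusted p = 0.28). Neurod2 over Eomes was −1.77, −0.90 and −0.75 in medial and 0.16 and 0.64 in lateral libraries. Neurod6 over Eomes was −0.37, 0.45 and 0.65 in medial and 1.37 and 1.97 in lateral libraries. Tbr1, a T-box paralog of Eomes that is turned on as Eomes is turned off in new neurons, had log2 ratios to Eomes of −2.31, −1.64 and −1.49 in medial and −0.79 and −0.11 in lateral libraries. The last 3 ratios were lower in every medial library, by 1.54, 1.43 and 1.36 log2 units on average. Each reached the smallest exact permutation p of 0.1 (adjusted p = 0.233), which this design cannot bring under 0.05.

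**Figure D3:**
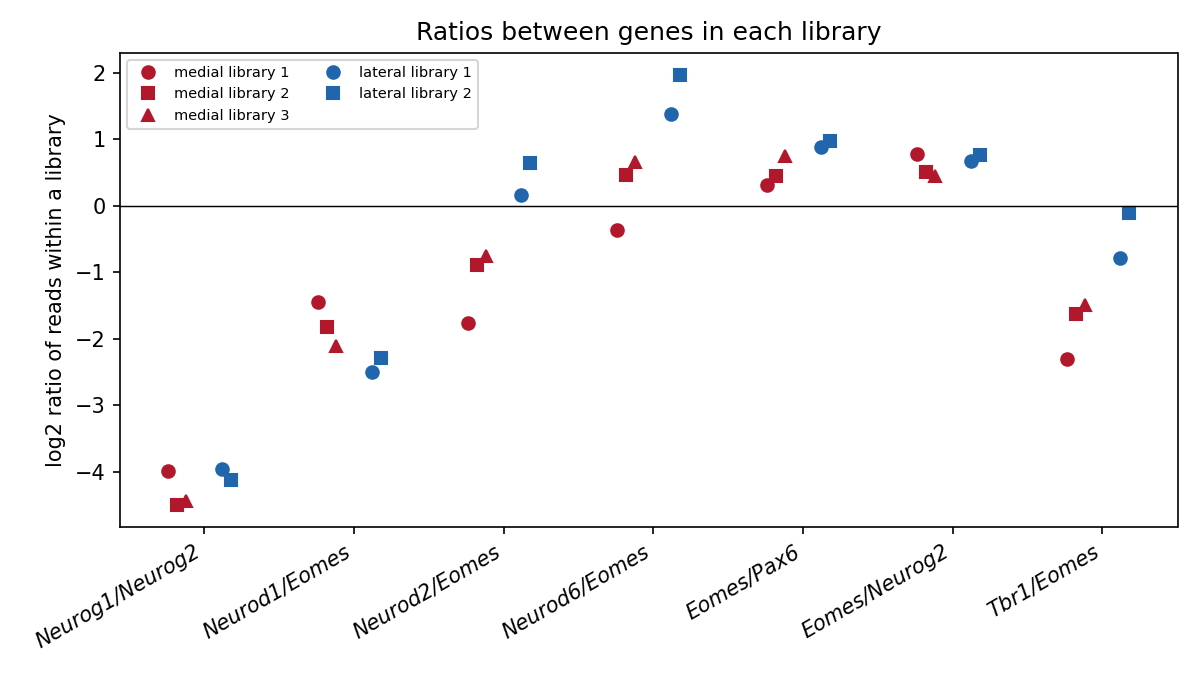
Log2 ratio of reads of 2 genes within each library, 1 point per library (red, medial; blue, lateral). Neurod2, Neurod6 and Tbr1 relative to Eomes lie lower in every medial library, Neurod1 relative to Eomes lies higher, and Neurog1 to Neurog2 and Eomes to Neurog2 overlap.

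Other genes of intermediate progenitors also had fold changes of both signs. Of 17 tested, 1 was higher in medial cortex, 1 was lower and 15 did not pass, with a median log2 fold change of −0.03 against 0.01 over all genes. The chromatin remodeller Chd7 was higher, at 385 CPM ± 23.6 (SD, n = 3) against 171 ± 42.5 (SD, n = 2), a log2 fold change of 1.17 (edgeR adjusted p = 0.0296). The RNA-binding protein gene Elavl4 was lower, at 172 ± 11.4 CPM (SD, n = 3) against 243 ± 4.10 (SD, n = 2), a log2 fold change of −0.50 (edgeR adjusted p = 0.0318).

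Among 7 tested bHLH activators outside the list, Nhlh2 was higher (log2 fold change 1.52, edgeR adjusted p = 0.0253) and 6 did not pass. Nhlh2 also marks Cajal-Retzius cells, the reelin-secreting neurons of the cortical surface. E proteins are the partners with which proneural factors bind DNA, and 0 of 3 passed by edgeR, with 2 at an unadjusted p under 0.05 and 1 called higher by DESeq2. The 2 with the highest level, Tcf4 and Tcf12, had log2 fold changes of 0.44 and −0.04 (adjusted p = 0.0556 and 0.795). A list of 9 Id, Hes and Hey genes holds inhibitors that keep progenitors from neurogenesis, and also Hes6, which opposes Hes1 and is counted above with the intermediate progenitor genes. Of these 9, 3 were higher and 1 was lower, with a median of 1.05. Higher were Hey2 (2.68), the BMP-induced inhibitor Id3 (3.45) and the Notch effector Hes1 (1.05), and Id2 was lower (−1.32). Among 11 tested paralogs and partners of the 10 genes, the stress-response gene Gadd45a was higher (1.25), while Tbr1 (−1.41) and the somatostatin gene Sst (−3.36) were lower.

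Markers of several cell types moved with region beside these values. For projection neurons, a list that includes Neurod2 and Neurod6, 6 of 12 were lower and 0 higher in medial cortex, among them Cux2, Pou3f2 and Sox5 (log2 fold changes −2.43, −2.02 and −1.84). Summed over that list the level was 1107 to 2116 CPM in medial and 3431 to 4200 CPM in lateral libraries. Pan-neuronal markers had 4 of 11 lower (among them Syt1, Rbfox3 and Dcx) and 1 higher (Nefl), with sums of 1211 to 1853 CPM and 2352 to 3197 CPM. Medial library 1 had the lowest sum in both lists, as it had the lowest level of Neurod2, Neurod6, Insm1 and Sstr2. It also had the lowest level of Eomes and Neurog2, for which the groups overlapped. Radial glia markers had 3 of 11 higher (Nes, Hes1 and Notch1) and 1 lower (Ddah1), with sums of 3526 to 4233 CPM in medial and 2443 to 2863 CPM in lateral libraries. Cell division genes had 6 of 11 higher and 0 lower, with sums of 3162 to 3988 CPM and 2076 to 2444 CPM. The highest sum of both was in medial library 1, as for Neurod1 and Btg2. Cajal-Retzius markers had 9 of 9 higher, with sums of 594 to 688 CPM against 182 to 226 CPM, and hem markers 8 of 9. For GABAergic neurons, which enter the cortex from the ventral forebrain, 6 of 9 tested were lower, with sums of 55.4 to 82.2 CPM in medial and 126 to 145 CPM in lateral libraries, and their marker Lhx8 was at or near 0 throughout. Endothelial and blood markers had 2 of 8 lower, Cdh5 and Hbb-y, with sums of 323 to 422 CPM against 457 to 528 CPM. Of 6 microglia markers 0 passed by edgeR, 0 had an unadjusted p under 0.05 and DESeq2 called 0. Of 4 tested choroid plexus markers 1 was higher, Otx2 (5.24), and of 5 dorsal telencephalon markers 2 were higher, Emx2 (1.32) and Lhx2 (1.07). The part of any of these in the values of the 10 genes was not tested.

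**Figure D4:**
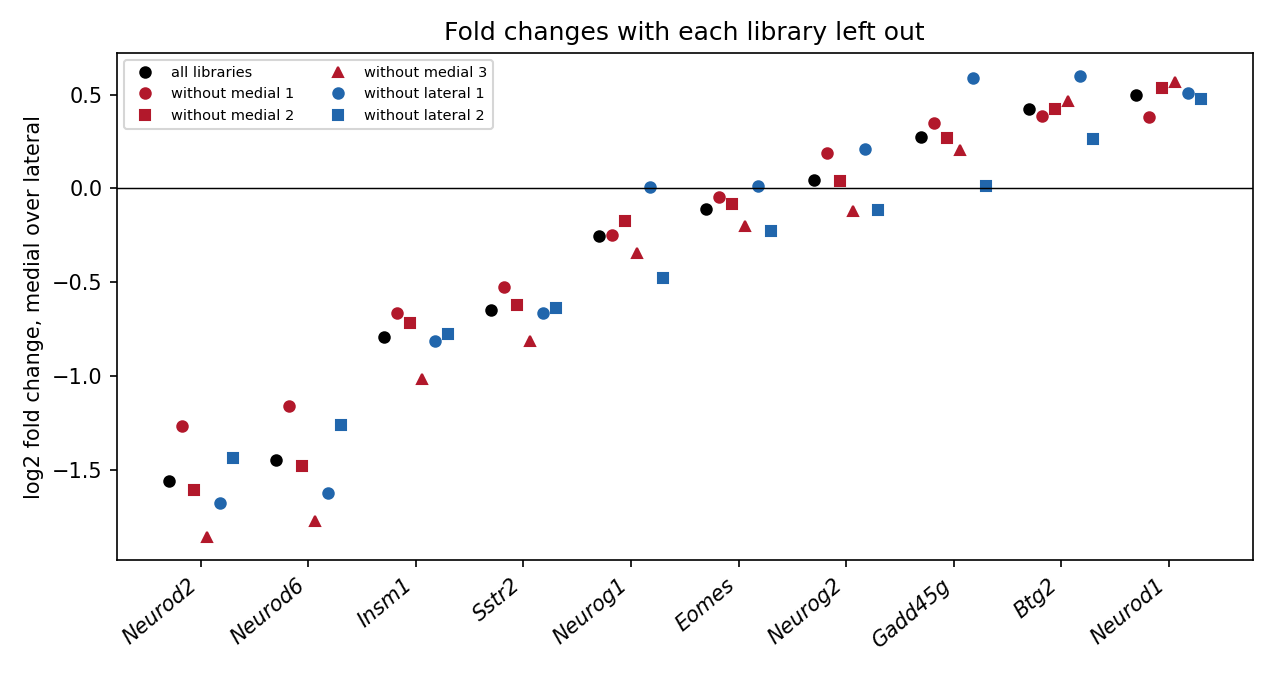
Log2 fold change of each gene, medial over lateral, in all libraries (black) and with each library left out (red, a medial library left out; blue, a lateral one). Neurod2, Neurod6, Insm1 and Sstr2 stay below 0 and Btg2, Neurod1 and Gadd45g above it, while Neurog1, Eomes and Neurog2 cross 0.

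With each library left out in turn, the direction of Neurod2, Neurod6, Insm1, Sstr2, Neurod1, Btg2 and Gadd45g did not change. Neurog2 ranged from −0.12 to 0.21, Eomes from −0.23 to 0.01 and Neurog1 from −0.48 to 0.01, so no direction is given for these 3. Each such fit reuses most of the same libraries.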

How the data were processed

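Per the labels, RNA of 5 cortical samples was extracted with a column kit and made into unstranded polyA libraries. The authors deposited raw read counts per gene symbol, and per the submitters' processing notes BWA, STAR and HTSeq and the build mm9 were used; roles and versions are not given in the sources used here. Classes of unassigned reads, 23.1% to 28.7% of each file, were kept out. Groups and replicate numbers came from the sample titles. Scaling was by TMM, and the test was the quasi-likelihood test of edgeR 4.0.16 (R 4.3.3; glmQLFit in its newer form, glmQLFTest, group alone) after filterByExpr (count 10, total 15). Benjamini-Hochberg adjustment ran over all 16229 genes, at a threshold of 0.05. The SE is the log2 fold change over the root of F, and intervals are approximate. Within-library ratios added 0.5 reads. Alternatives used DESeq2 1.42.0, limma-voom (limma 3.58.1), other scalings and filters, blocks and leaving out each library. The test was checked on simulated data. The 10 genes and the other lists were chosen with earlier results of these data known. Text names all 10 genes and, per other list, up to 4 called genes of lowest adjusted p, or the 2 of highest level where none was called; a few were chosen after their values were seen (Emx1, Ttr, Lhx8, Slc39a11). Not every list is named gene by gene, and some genes taken by this rule are left out of the text. Likeness to Eomes is the largest difference of centred log2 CPM (prior count 2) over libraries, among genes of at least 10 CPM. Promoter sequences are from RefSeq (GRCm38.p6).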

Additional observations from a re-analysis of the deposited data

How the results depend on the processing

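The number of genes of the 10 that were lower in medial cortex, 1 by edgeR, was 2 with library size alone as scaling, 4 by DESeq2, 4 with the replicate block, 4 with the tag block (C1 to C3, part of the deposited names), and 0 to 3 with each library left out. The number higher, 0 by edgeR, was 2 by DESeq2, 3 with the tag block and 0 to 1 with each library left out. Insm1 and Sstr2 were called lower with the replicate block (edgeR adjusted p = 0.0354 and 0.0414) and the tag block (0.000335 and 0.000533). Neurod6 (0.0363 and 1.1e-06) and Neurod2 (0.0385 and 3.0e-07) were likewise lower with the replicate and tag blocks. With the tag block Neurod1, Btg2 and Gadd45g were called higher (edgeR adjusted p = 0.00166, 0.0026 and 0.0431). Over all genes 1577 were called, against 3527 by DESeq2, 5361 with the tag block, 1076 with the replicate block and 0 to 2164 with each library left out; without medial library 2 or lateral library 2 edgeR called 0, while 4035 and 2456 genes had an unadjusted p under 0.05. The cause of these differences was not tested, and the fits that left out a library also had fewer samples. Medial library 1 shares its tag with no lateral library, so with the tag block it does not enter the medial-against-lateral difference. With the replicate block the same holds for medial library 3. Neurod2 had a log2 fold change of −1.27 both with the tag block and without medial library 1. For Insm1 it was −1.02 with the replicate block and −1.01 without medial library 3. Samples sharing a replicate number did not vary together: the correlation of their deviations from the group means was 0.03 for number 1 and −0.38 for number 2. The tag pairs medial library 2 with lateral library 1 (0.38) and medial library 3 with lateral library 2 (0.38). With only 2 lateral libraries these values mirror each other, and a block leaves 1 residual degree of freedom. DESeq2 size factors, upper-quartile scaling, both other filters and limma-voom kept all counts within 1.5 times. The 7 ratios kept their direction. A lone lateral library is assumed to vary like the medial ones.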
